A study of Homo sapiens with 16 samples.

Results

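MHC class I antigen presentation was followed through 9 genes in MDA-MB-231 and in MDA-MB-436, which are mesenchymal triple-negative breast cancer lines. The genes were chosen by name: HLA-B, HLA-C, HLA-E, HLA-F, B2M, TAP1, TAP2, PSMB9 and NLRC5, out of 57820 gene identifiers in the count tables. Each line stably carried 7TGP, a vector in which Tcf/Lef binding sites drive eGFP and which confers puromycin resistance, so that eGFP reports canonical Wnt activity. Repeated sorting on eGFP had given 1 7TGP-POS (reporter-positive) and 1 7TGP-NEG (reporter-negative) subline per line, so a difference between them is a difference between a pair of sorted sublines, and not every 7TGP-POS cell was positive. The 4 sublines were grown under low serum (0.5% FBS, day 3) or standard serum (10% FBS, day 6), with 2 biological replicates per group, which makes 8 groups and 16 bulk RNA libraries. According to the study's methods, low serum RNA was depleted of ribosomal RNA and standard serum RNA was selected for polyA, on different sequencers, whereas the sample labels name the same kit throughout. Serum, days in culture, library kit and sequencer therefore cannot be told apart. The methods also name a different culture medium for each line, so medium and cell line cannot be told apart either. Serum itself was not tested, and the change between sublines is set side by side for both conditions.

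MHC class I molecules carry peptides from inside the cell to its surface, where cytotoxic T cells and natural killer cells read them. A polymorphic heavy chain, such as HLA-B or HLA-C, pairs with the invariant light chain beta-2-microglobulin, encoded by B2M. PSMB9 is a catalytic subunit of the immunoproteasome, which cuts proteins into peptides, and TAP1 with TAP2 forms the pump that moves those peptides into the endoplasmic reticulum. NLRC5 is the transactivator that works on class I promoters together with RFX, CREB/ATF and NF-Y proteins, and interferons raise most of these genes through STAT and IRF factors. In tumour cells, low class I expression is a known route of escape from T cells.

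The start regions of members that hold or lack an interferon motif in the 250 bases searched are shown here, since TAP1 and PSMB9 rose together in MDA-MB-231 below. RefSeq promoters (build GRCh38.p14) were at hand for 7 of the 9 members. HLA-E and NLRC5 were missing from the table. Each line gives the 250 bases upstream of the annotated start, 5′ to 3′ on the gene's strand. Capitals mark matches to the interferon-stimulated response element (GAAA, any 2 bases, GAAA) on either strand or, in HLA-B, to the class I kappa B motif, which was searched with exactly the letters in capitals.
TAP1, chr6:32853705-32853954, minus strand: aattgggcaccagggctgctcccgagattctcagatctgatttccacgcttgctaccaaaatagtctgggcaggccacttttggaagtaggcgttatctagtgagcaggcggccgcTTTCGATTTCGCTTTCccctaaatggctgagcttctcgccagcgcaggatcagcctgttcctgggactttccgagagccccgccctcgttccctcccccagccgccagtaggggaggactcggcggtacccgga
PSMB9, chr6:32853942-32854191, plus strand: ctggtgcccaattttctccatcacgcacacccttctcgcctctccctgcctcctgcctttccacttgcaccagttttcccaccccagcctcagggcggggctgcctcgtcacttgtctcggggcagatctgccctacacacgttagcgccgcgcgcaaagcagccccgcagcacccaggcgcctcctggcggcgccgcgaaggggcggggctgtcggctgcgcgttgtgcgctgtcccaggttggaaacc
B2M, chr15:44711267-44711516, plus strand: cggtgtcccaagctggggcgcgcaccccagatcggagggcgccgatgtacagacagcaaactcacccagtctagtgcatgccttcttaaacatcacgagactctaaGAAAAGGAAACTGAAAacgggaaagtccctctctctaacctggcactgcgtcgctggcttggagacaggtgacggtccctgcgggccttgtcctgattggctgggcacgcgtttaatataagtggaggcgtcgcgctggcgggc
HLA-F, chr6:29723184-29723433, plus strand: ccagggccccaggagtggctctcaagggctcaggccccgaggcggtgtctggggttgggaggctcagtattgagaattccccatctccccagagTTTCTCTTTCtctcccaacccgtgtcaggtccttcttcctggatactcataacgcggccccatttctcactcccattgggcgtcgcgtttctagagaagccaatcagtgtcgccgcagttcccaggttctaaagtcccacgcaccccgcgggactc
HLA-B, chr6:31357180-31357429, minus strand: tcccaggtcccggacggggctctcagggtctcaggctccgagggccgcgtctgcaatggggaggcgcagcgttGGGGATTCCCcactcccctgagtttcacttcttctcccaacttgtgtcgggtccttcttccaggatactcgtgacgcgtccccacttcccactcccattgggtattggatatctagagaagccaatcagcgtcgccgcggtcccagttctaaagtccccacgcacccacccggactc

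Matches to the response element occurred upstream of 4 members, B2M, HLA-F, TAP1 and TAP2, whereas 3.02% of 35116 promoters of the same length held one. In B2M and in TAP1 the capitals cover 2 overlapping matches each, from -144 to -129 and from -134 to -119 relative to the start. HLA-F had its match at -156 to -147, and TAP2 at -58 to -49. No match to this strict pattern lay in the windows of HLA-B, HLA-C and PSMB9. Response elements that depart from its letters were not searched, so these windows need not lack one. HLA-B alone held the exact kappa B string searched, at -177 to -168, which 0.0683% of promoters held. Kappa B sites with other letters were not searched, so the other windows need not lack one. Among the motifs bound by partners of NLRC5, the CRE half-site TGACG was found in 5 members (21.2% of promoters) and the CCAAT box in 6 members (32% of promoters). The Tcf/Lef motif ATCAAAG, read by the 7TGP reporter's factors, and the gamma-activated site TTCNNNGAA were each found in 1 member, TAP1, upstream of its second annotated start. They occurred in 2.26% and 6.57% of promoters. The TAP1 and PSMB9 starts shown above face away from each other and lie 487 bases apart, so their upstream windows share 13 bases. The response element matches of TAP1 thus lie between these starts, upstream of PSMB9 too, but beyond the window searched for PSMB9. These matches describe letters only, and binding was not measured.

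**Figure D1:**
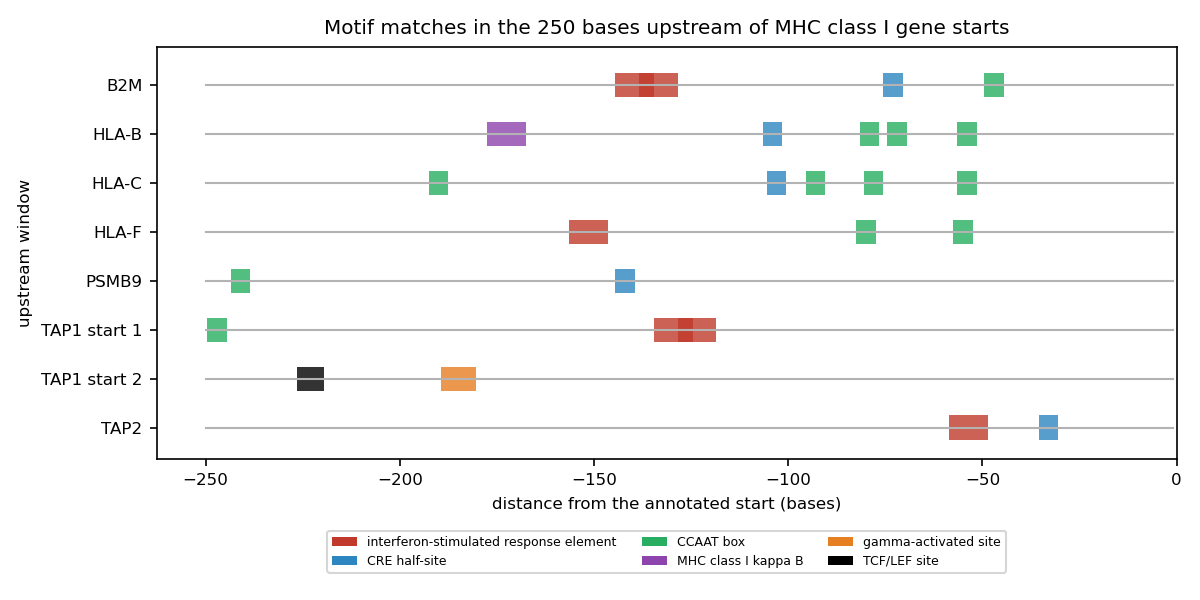
Positions of motif matches (coloured bars) along the 250 bases upstream of the annotated starts of 7 members; the x axis is the distance from the start in bases, and TAP1 has 2 annotated starts. Response element matches (red) appear in B2M, HLA-F, TAP1 and TAP2, and overlapping matches give the darker red.

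In the GRCh37 build used for the counts, the members are placed as follows. HLA-F (chr6:29690552-29706305) and HLA-E (chr6:30457286-30461971) lie on the plus strand, and HLA-C (chr6:31236526-31239907) and HLA-B (chr6:31321649-31334844) on the minus strand. TAP2 (chr6:32789610-32806516, minus strand), PSMB9 (chr6:32811913-32827628, plus strand) and TAP1 (chr6:32812986-32821593, minus strand) follow in the class II region. B2M is at chr15:45003556-45011049 and NLRC5 at chr16:57023397-57117443, both on the plus strand. Class I heavy chain genes resemble each other and differ between people, so reads from an allele unlike the reference can be lost or assigned to a relative. Levels of HLA genes are uncertain for that reason, most of all between cell lines, while sublines of 1 line share their alleles. In Gencode v44 lifted to GRCh37, transcripts on the opposite strand overlap exons of HLA-F, HLA-B, TAP1 and PSMB9. Counting used Gencode v19, and whether it used strand is not given in the sources used here. HLA-F-AS1, an antisense transcript over 12.4% of HLA-F exons, had at most 11 counts, whereas PSMB8 shares 4.2% of PSMB9 exons and had 928 to 2935 counts.

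Libraries held 27.9 to 32.7 M counts on genes under low serum and 31.8 to 46.04 M under standard serum. The 6 mesenchymal markers summed to 585 TPM (a level scaled by gene length and library) or more in each library, the hormone receptors ESR1 and PGR summed to at most 0.24 TPM, and 2 of 6 leukocyte markers were at 3 counts or fewer in every library. Marker sums also moved with the sublines. In MDA-MB-231 the mesenchymal sum was 2607 to 2669 TPM in 7TGP-NEG and 1130 to 1269 TPM in 7TGP-POS under low serum. Under standard serum it was 3884 to 4289 against 1949 to 2023 TPM. VIM fell by 1.05 and 1.03 on the log2 scale, but the list was mixed. Of the 6 markers, 1 was higher and 1 lower under low serum (edgeR adjusted p under 0.05). Under standard serum SPARC was higher, by 1.33, and 2 were lower. Of all tested genes, 38.9% and 33% passed that test. In MDA-MB-436 the mesenchymal sum was 662 to 716 TPM in 7TGP-NEG and 1032 to 1082 TPM in 7TGP-POS under standard serum, and the sums overlapped under low serum. Single markers of that line did change under low serum: 4 of the 6 were higher, among them FN1 by 1.37 and SPARC by 2.97, and 1 was lower. Under standard serum 4 were higher, SPARC by 2.78, and 0 lower. Of all tested genes, 52% and 49.5% changed in that line. The leukocyte sum of that line went from 10.8 to 11.6 TPM in 7TGP-NEG to 13.8 to 16.2 TPM in 7TGP-POS under low serum and from 13.2 to 14.4 to 7.26 to 10.01 TPM under standard serum, and ITGAM, a myeloid integrin, fell by 1.22 and 1.48. This list was mixed too. Of its 4 markers tested in MDA-MB-436, 1 was higher and 1 lower under low serum, and 2 were lower under standard serum. In MDA-MB-231, 2 of the 4 were higher under low serum, PTPRC by 1.14, and 0 changed under standard serum. The part of these shifts in the results was not tested. MDA-MB-231 differed from the mesenchymal label in 1 respect: its summed epithelial markers reached 518 to 1167 TPM, mostly from KRT19 and lower in 7TGP-POS than in 7TGP-NEG, whereas MDA-MB-436 had 4.91 to 9.06 TPM. Replicates differed most in MDA-MB-436 7TGP-POS under standard serum, with a median SD of 0.0992 in log2 CPM (CPM being counts relative to the size of the library) against 0.0457 to 0.0706 elsewhere. Changes that hinge on 1 of its libraries are named below.

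Levels of the members spanned the range from B2M to TAP2. In TPM, which is per length and so can be compared between genes, B2M was highest, at 422 to 1880 under low serum and 907 to 2792 under standard serum. HLA-B was at 245 to 369 and 258 to 504 TPM. It came second in 3 of the 4 sublines, whereas in MDA-MB-436 7TGP-POS the mean of HLA-C was higher than that of HLA-B, 350.3 against 252.8 TPM under low serum and 311.6 against 269.04 TPM under standard serum, where the libraries of the 2 genes overlapped. The lowest well-measured members were HLA-F, at 1.75 to 13.1 and 2.78 to 12.9 TPM, and NLRC5, at 4.60 to 10.1 and 6.33 to 9.61 TPM. TAP2, the partner of TAP1, had 1 to 11 counts per library under low serum. Under standard serum it had 1 count in 1 library of MDA-MB-231 7TGP-POS and 0 in the other 7, which allows up to 3 counts in each. TAP2 was therefore too low to test under standard serum, although TAP1 had 1612 to 2741 counts per library over both conditions. An overlapping gene annotated on the strand of TAP2, covering 19.5% of its exons in Gencode v44, was at 0 counts throughout. Counting used Gencode v19, and these 0 counts do not show whether reads over shared exons were counted for either gene. The low TAP2 counts therefore need not mean a low level, and their cause was not tested.

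**Figure D2:**
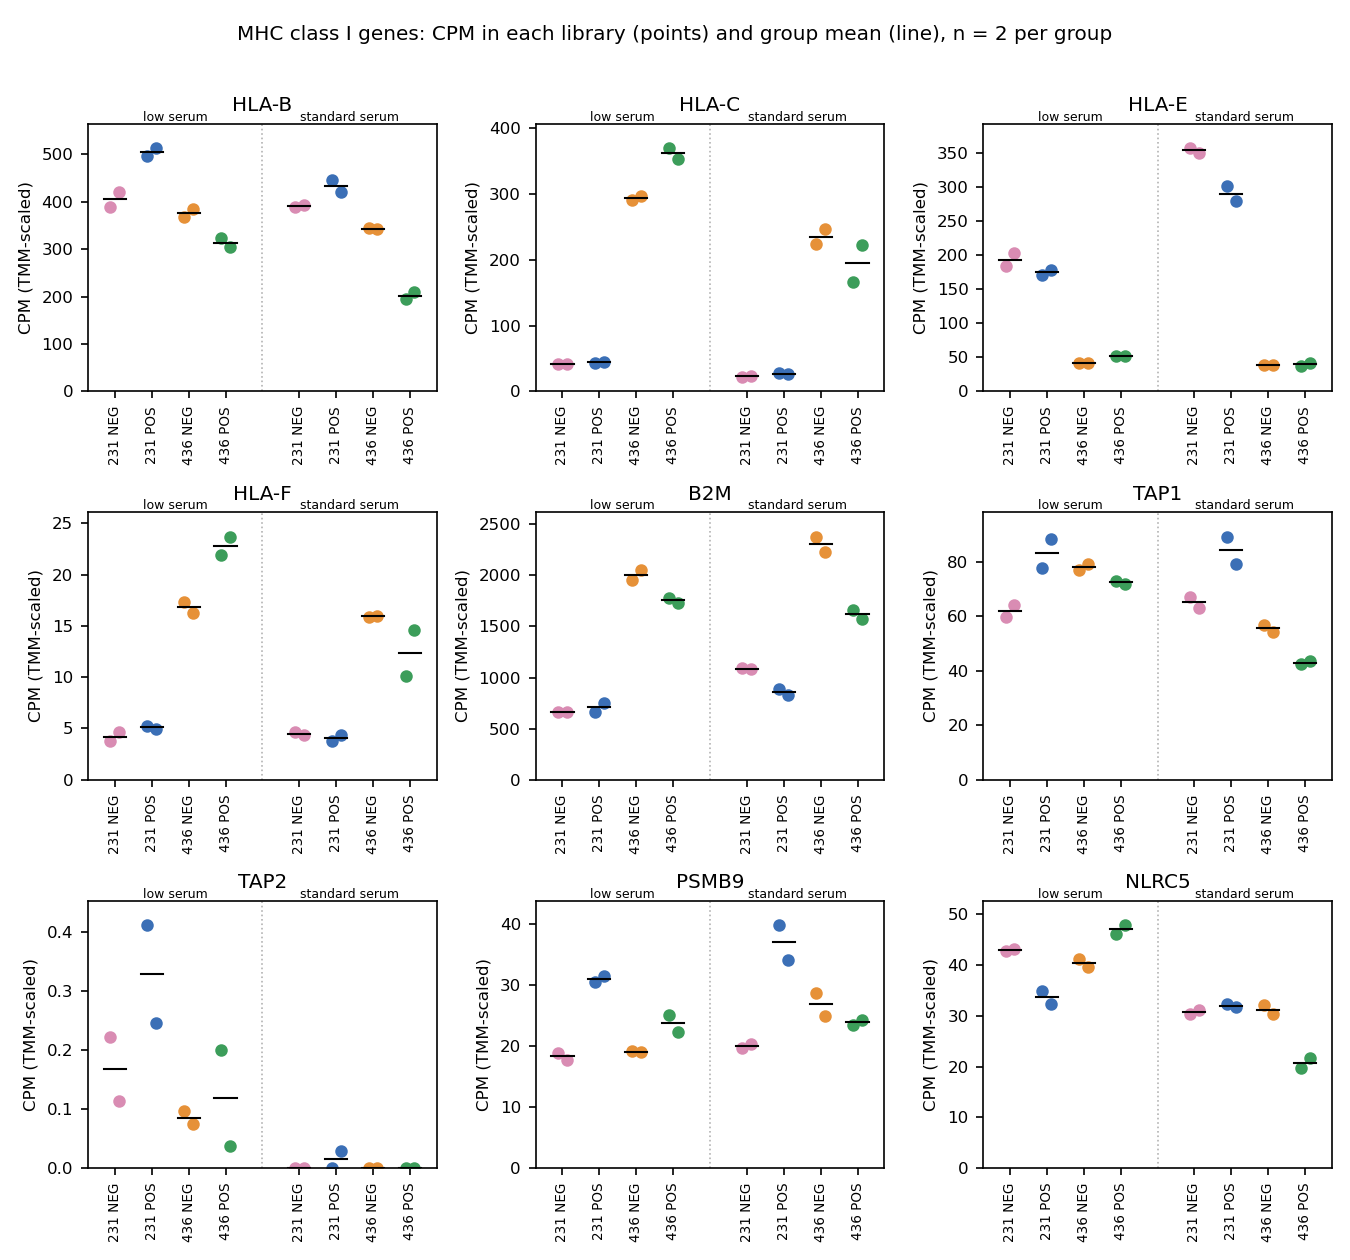
CPM (scaled by TMM factors) of the 9 members in each library (points) with group means (lines), n = 2 per group, low serum left and standard serum right of the dotted line in each panel, each panel with its own linear axis from 0. HLA-C, HLA-F and B2M are higher in the MDA-MB-436 libraries and HLA-E in the MDA-MB-231 libraries, while PSMB9 is highest in MDA-MB-231 7TGP-POS.

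Between the 7TGP-NEG sublines, MDA-MB-231 had more HLA-E, the heavy chain read by natural killer receptors, and MDA-MB-436 had more HLA-C, HLA-F and B2M. A gene is called changed here if edgeR's quasi-likelihood test gave it an adjusted p under 0.05 (Benjamini-Hochberg over all tested genes), and a DEG if its log2 fold change is also at least 1 in size. On that basis 5 of 9 members under low serum and 7 of 8 under standard serum differed between the 7TGP-NEG sublines, with 4 DEGs in each. Of all tested genes, 79.2% and 78.8% differed, and 41.9% and 46.7% were DEGs.

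Under low serum HLA-E was at 184 and 203 CPM in MDA-MB-231 7TGP-NEG and at 41.8 and 41.9 CPM in MDA-MB-436 7TGP-NEG. That is 4.61-fold higher in MDA-MB-231 (log2 difference 2.21 ± 0.06, SE, edgeR adjusted p = 1.79e-31). The standard serum libraries held 357 and 350 CPM against 38.2 and 38.5 CPM, a 9.21-fold difference (log2 3.20 ± 0.08, edgeR adjusted p = 9.50e-17). In HLA-E the ranges of the lines were thus far apart in both conditions.

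HLA-C, which presents peptide to T cells and is a ligand of natural killer receptors, went the other way. Under low serum it was at 42.1 and 41.9 CPM in MDA-MB-231 7TGP-NEG and at 290 and 297 CPM in MDA-MB-436 7TGP-NEG, 7.00-fold higher in MDA-MB-436. With 22.4 and 23.3 CPM against 225 and 246 CPM the difference under standard serum was 10.3-fold (edgeR adjusted p = 7.31e-36 and 3.19e-09). HLA-F, a nonclassical heavy chain, was 4.01-fold and 3.54-fold higher in MDA-MB-436 7TGP-NEG, and B2M was 3.03-fold and 2.12-fold higher (edgeR adjusted p of 3.43e-08 or less for each). The caution on HLA alleles given above applies to these values.

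The other members were closer between the lines where counts allowed a test. HLA-B differed by 0.11 on the log2 scale under low serum (edgeR adjusted p = 0.0536) and by 0.19 under standard serum (adjusted p = 0.0237), in both cases higher in MDA-MB-231 7TGP-NEG with TMM scaling. The standard serum call was lost when any 1 of the 4 7TGP-NEG libraries was left out (0.17 to 0.19), and the low serum difference passed without MDA-MB-231 7TGP-NEG replicate 1 (0.16, adjusted p = 0.026) or either 7TGP-POS library of that line (0.11, adjusted p = 0.03). On the deposited TPM the low serum difference turned to -0.29 (limma adjusted p = 0.00383), and with library totals alone the standard serum one turned to -0.03. PSMB9 differed by -0.06 under low serum (95% interval -0.22 to 0.11), a value that passed on log2(TPM + 1) at -0.43 (limma adjusted p = 0.0023), and was lower in MDA-MB-231 7TGP-NEG by 0.42 on the log2 scale under standard serum (-0.42 ± 0.10, edgeR adjusted p = 0.00096). TAP2 gave 0.93 (-0.91 to 2.77) under low serum, too few counts to judge. NLRC5 differed by 0.09 (95% interval -0.04 to 0.21) and -0.02 (-0.21 to 0.16), and its sign also flips with the scaling. TAP1 was lower in the MDA-MB-231 subline under low serum (log2 difference -0.34, edgeR adjusted p = 3.48e-06) and higher under standard serum (0.23, adjusted p = 0.0168). The latter lost its call without MDA-MB-231 7TGP-NEG replicate 1 (0.18, adjusted p = 0.15) and without MDA-MB-436 7TGP-NEG replicate 2 (0.19, adjusted p = 0.12), and on TPM (0.06).

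Across the 4 sublines of a serum condition the order of levels followed the cell line for HLA-C, HLA-E, HLA-F and B2M. For HLA-C under low serum it ran from MDA-MB-436 7TGP-POS (362 ± 11.2 CPM, SD, n = 2) to MDA-MB-436 7TGP-NEG, then MDA-MB-231 7TGP-POS and 7TGP-NEG, of which the last 2 did not differ beyond their spread. PSMB9 was highest in MDA-MB-231 7TGP-POS in both conditions, at 31.0 ± 0.74 CPM in low and 36.96 ± 4.03 CPM under standard serum. NLRC5 was lowest in MDA-MB-231 7TGP-POS under low serum (33.6 CPM) and in MDA-MB-436 7TGP-POS under standard serum (20.7 CPM). The other 3 sublines did not differ between neighbours in the order. Under low serum, however, the MDA-MB-436 sublines, which are not neighbours, did differ in NLRC5 (log2 0.22, edgeR adjusted p = 0.0035). Neighbours that did not pass the test under low serum also included the 7TGP-NEG sublines of both lines for HLA-B and PSMB9, and the MDA-MB-231 sublines for HLA-F and B2M. They further included the steps among the upper 3 sublines for TAP1, whose highest and lowest are not neighbours. Under standard serum they were the MDA-MB-231 sublines for HLA-B, HLA-C and HLA-F, and the MDA-MB-436 sublines for HLA-C, HLA-E and PSMB9.

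In MDA-MB-231, the peptide supply genes PSMB9 and TAP1 were higher in 7TGP-POS than in 7TGP-NEG cells in both serum conditions, whereas the heavy chain gene HLA-E was lower in both. Under low serum 5 of 9 members changed, 3 higher and 2 lower, with 0 DEGs. Of all 16069 genes tested there, 38.9% changed (19% higher and 19.9% lower) and 5.9% were DEGs. Under standard serum 4 of 8 members changed, 2 in each direction, with 0 DEGs, beside 33% changed (16.8% higher and 16.2% lower) and 7.69% DEGs among 15414 genes. The members' median log2 fold change was 0.28 under low serum and 0.10 under standard serum, against -0.01 and 0 over all tested genes. TAP2, with too few counts to judge, enters the low serum median only, so the 2 medians rest on different members.

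PSMB9 had the largest change among the members that passed the test in this line. It was at 18.9 and 17.7 CPM in 7TGP-NEG and 30.5 and 31.5 CPM in 7TGP-POS libraries of MDA-MB-231 under low serum, a 1.69-fold rise (log2 0.76 ± 0.08, SE, edgeR adjusted p = 2.00e-10). Standard serum gave 19.7 and 20.3 against 39.8 and 34.1 CPM, a 1.85-fold rise (log2 0.88 ± 0.10, edgeR adjusted p = 1.79e-06). Both 7TGP-POS libraries lay well above both 7TGP-NEG libraries, and over 19 alternatives in low and 18 under standard serum the call remained, with log2 changes of 0.52 to 0.81 and 0.77 to 0.99. TAP1, whose start lies next to that of PSMB9, was at 59.7 and 64.1 CPM in 7TGP-NEG and 77.8 and 88.4 CPM in 7TGP-POS under low serum (log2 0.42 ± 0.06, adjusted p = 2.42e-07). Under standard serum it rose from 67.2 and 63.0 to 89.3 and 79.0 CPM (log2 0.37 ± 0.08, adjusted p = 0.00157). TAP1 was thus above its 7TGP-NEG range in each 7TGP-POS library.

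Among the heavy chains of MDA-MB-231, HLA-B was at 389 and 421 CPM in 7TGP-NEG and 497 and 513 CPM in 7TGP-POS under low serum, a rise of 0.32 ± 0.05 on the log2 scale (edgeR adjusted p = 1.77e-06). Under standard serum it was at 389 and 393 against 445 and 420 CPM, a log2 difference of 0.15 that missed the threshold (adjusted p = 0.131; 95% interval -0.0039 to 0.30). The direction was the same, and the standard serum call depended on the fit: it passed with only the 4 MDA-MB-231 libraries (adjusted p = 0.033), on library totals or TPM, and when either 7TGP-POS library of MDA-MB-436 was left out (0.14, adjusted p = 0.049). HLA-E fell by 0.15 on the log2 scale under low serum, from 184 and 203 to 170 and 178 CPM (adjusted p = 0.0216), and by 0.29 under standard serum, from 357 and 350 to 301 and 278 CPM (adjusted p = 0.00608). These HLA-E changes were small: the low serum call was lost without MDA-MB-231 7TGP-NEG replicate 2 (-0.07), without MDA-MB-231 7TGP-POS replicate 1 (-0.11), without MDA-MB-436 7TGP-NEG replicate 1 (-0.14), with DESeq2 (-0.13), with all biotypes (-0.11) and with only the 4 compared libraries (-0.12). The standard serum call was lost without MDA-MB-231 7TGP-NEG replicate 1 (-0.27) and without 7TGP-POS replicate 2 (-0.23).

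HLA-C did not pass the test in MDA-MB-231. Its log2 differences were 0.07 under low serum (95% interval -0.05 to 0.19) and 0.25 under standard serum (-0.06 to 0.55, edgeR adjusted p = 0.205). The standard serum call depended on the fit. It passed with only the 4 MDA-MB-231 libraries (0.26, edgeR adjusted p = 0.013) and when either 7TGP-POS library of MDA-MB-436 was left out (0.24). HLA-F, at 3.78 to 5.25 CPM in low and 3.81 to 4.63 CPM under standard serum, gave 0.28 (-0.0070 to 0.58; adjusted p = 0.12) and -0.13 (-0.52 to 0.26). On TPM under low serum the HLA-C value turned to -0.13. The light chain gene B2M was at 664 and 659 CPM in 7TGP-NEG and 664 and 755 CPM in 7TGP-POS under low serum, a log2 difference of 0.10 (adjusted p = 0.146). That difference turned to -0.10 on TPM. It passed with library totals (0.12, edgeR adjusted p = 0.043) and without 7TGP-POS replicate 1 (0.19). A crossed replicate block, added after seeing the data, gave 0.10 (edgeR adjusted p = 0.039). Under standard serum B2M fell by 0.34, from 1091 and 1084 to 883 and 830 CPM (adjusted p = 0.00151), and both 7TGP-POS libraries lay below the 7TGP-NEG range.

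NLRC5, the class I transactivator, was at 42.8 and 43.0 CPM in 7TGP-NEG and 34.9 and 32.4 CPM in 7TGP-POS libraries of MDA-MB-231 under low serum. It fell by 0.35 ± 0.07 on the log2 scale (edgeR adjusted p = 2.72e-05), in the same libraries in which PSMB9, TAP1 and HLA-B rose. Under standard serum NLRC5 was at 30.3 and 31.1 against 32.2 and 31.7 CPM, a log2 difference of 0.06 (95% interval -0.13 to 0.24; adjusted p = 0.669). TAP2 under low serum had 6 and 3 counts in 7TGP-NEG and 11 and 6 in 7TGP-POS, too few to show a change (adjusted p = 0.298).

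In MDA-MB-436, 7TGP-POS cells had less HLA-B and B2M than 7TGP-NEG cells in both serum conditions. Under low serum 7 of 9 members changed, 5 higher (HLA-C, HLA-E, HLA-F, PSMB9 and NLRC5) and 2 lower (HLA-B and B2M). Over all genes tested 52% changed, 26.6% higher and 25.3% lower. Under standard serum 5 of 8 changed (HLA-B, HLA-F, B2M, TAP1 and NLRC5), each of them lower, beside 49.5% of all genes, 26.1% higher and 23.4% lower. There were 0 DEGs among the members in either condition, against 10.5% and 12.5% of all genes. The members' median log2 fold change was 0.30 under low serum and -0.37 under standard serum, against 0.01 and 0.00 over all tested genes. Here too TAP2 enters the low serum median only.

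**Figure D3:**
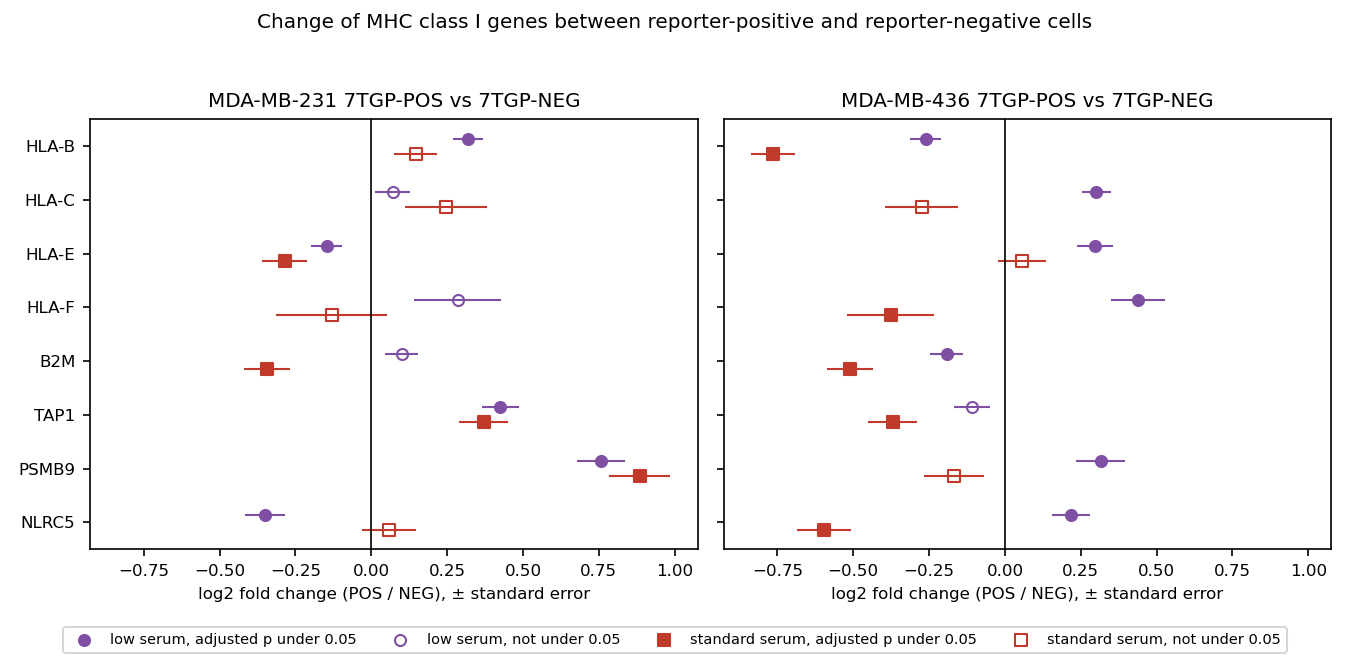
Log2 fold change of 7TGP-POS over 7TGP-NEG (x axis) with its standard error for 8 members (TAP2 is left out), in MDA-MB-231 (left) and MDA-MB-436 (right), circles for low and squares for standard serum, filled where the adjusted p is under 0.05; n = 2 libraries per group. PSMB9 and TAP1 lie to the right of 0 in MDA-MB-231 in both conditions, and in MDA-MB-436 all members but HLA-E lie left of 0 under standard serum (-0.76 to -0.17), while 5 lie right of 0 under low serum with TMM scaling, of which NLRC5 turns to -0.03 on TPM.

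The MDA-MB-436 heavy chain gene HLA-B was at 367 and 385 CPM in 7TGP-NEG and 324 and 305 CPM in 7TGP-POS under low serum, a fall of 0.26 ± 0.05 on the log2 scale (edgeR adjusted p = 3.38e-05). Under standard serum it fell by 0.76 ± 0.07, from 345 and 342 to 195 and 210 CPM (adjusted p = 9.41e-08), the largest change among the members in this line. Each 7TGP-POS library was below the 7TGP-NEG range, and the call was kept over the 19 and 18 alternatives run, with values from -0.51 to -0.21 and from -0.82 to -0.67. B2M fell by 0.19 under low serum, from 1958 and 2056 to 1781 and 1731 CPM (adjusted p = 0.00246), a call lost without 7TGP-NEG replicate 2 of this line (-0.16, adjusted p = 0.071). Under standard serum B2M fell by 0.51, from 2379 and 2228 to 1658 and 1576 CPM (adjusted p = 1.92e-05). The transcripts of a classical heavy chain and of the light chain were thus both lower in 7TGP-POS cells of this line.

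HLA-C in MDA-MB-436 was at 290 and 297 CPM in 7TGP-NEG and 370 and 354 CPM in 7TGP-POS under low serum, 1.23-fold higher (log2 0.30 ± 0.05, edgeR adjusted p = 1.07e-06). Under standard serum the 7TGP-NEG libraries held 225 and 246 CPM and the 7TGP-POS libraries 167 and 223 CPM, a log2 difference of -0.27 ± 0.12 (adjusted p = 0.0871). It passed with DESeq2's test (-0.30, adjusted p = 0.031). With all biotypes (-0.29, edgeR adjusted p = 0.048) and with the replicate number as a block (-0.28, edgeR adjusted p = 0.038) it passed as well. The 2 7TGP-POS libraries were far apart there, and the value hinged on them: it was -0.50 without replicate 2 (adjusted p = 4.9e-05) and -0.09 without replicate 1 (adjusted p = 0.31). HLA-F behaved alike: it rose by 0.44 ± 0.09 under low serum, from 17.3 and 16.3 to 21.9 and 23.7 CPM (adjusted p = 6.91e-05), and fell by 0.38 ± 0.14 under standard serum, from 15.9 and 15.98 to 10.1 and 14.5 CPM (adjusted p = 0.0403). That fall lost its call under 10 of 18 alternatives, among them DESeq2 (adjusted p = 0.089) and leaving out 7TGP-POS replicate 1 (-0.14, adjusted p = 0.35), either 7TGP-NEG library of MDA-MB-436 (-0.39 and -0.38), or either MDA-MB-231 7TGP-POS library (adjusted p = 0.056).

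HLA-E, scarce in this line, rose by 0.30 ± 0.06 under low serum, from 41.8 and 41.9 to 51.2 and 51.6 CPM (edgeR adjusted p = 5.21e-05). Under standard serum it was at 38.2 and 38.5 against 37.5 and 42.2 CPM, with overlapping groups and a log2 difference of 0.06 (95% interval -0.11 to 0.22) that turned to -0.04 without 7TGP-POS replicate 2.

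TAP1 in MDA-MB-436 was at 77.1 and 79.3 CPM in 7TGP-NEG and 73.1 and 71.9 CPM in 7TGP-POS under low serum, a log2 difference of -0.11 (edgeR adjusted p = 0.129) that passed with DESeq2's size factors (-0.14, adjusted p = 0.045) and on TPM (-0.35, limma adjusted p = 0.013). Under standard serum TAP1 fell by 0.37 ± 0.08, from 56.9 and 54.3 to 42.4 and 43.6 CPM (adjusted p = 0.00103). PSMB9 rose by 0.32 ± 0.08 under low serum, from 19.1 and 19.02 to 25.1 and 22.3 CPM (adjusted p = 0.000906), which fell to 0.18 (adjusted p = 0.13) without 7TGP-POS replicate 1. Under standard serum PSMB9 was at 28.7 and 24.9 against 23.4 and 24.3 CPM, a log2 difference of -0.17 (95% interval -0.37 to 0.04; adjusted p = 0.173). The TAP1 and PSMB9 genes, which moved together in MDA-MB-231, thus had opposite signs under low serum in MDA-MB-436.

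NLRC5 in MDA-MB-436 was at 41.1 and 39.7 CPM in 7TGP-NEG and 46.1 and 47.9 CPM in 7TGP-POS under low serum, a rise of 0.22 ± 0.06 on the log2 scale (edgeR adjusted p = 0.00353). This rise lost its call without 7TGP-NEG replicate 2 (0.19, adjusted p = 0.054), without 7TGP-POS replicate 2 (0.15, adjusted p = 0.098) and with DESeq2 (0.18, adjusted p = 0.06). Under standard serum NLRC5 fell by 0.60 ± 0.09, from 32.2 and 30.2 to 19.7 and 21.6 CPM (adjusted p = 1.88e-05), and this call remained under the 18 alternatives run. TAP2 had 3 and 2 counts in 7TGP-NEG and 6 and 1 in 7TGP-POS under low serum, with overlapping groups.

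Set side by side, the MDA-MB-436 changes in low and standard serum were 0.30 and -0.27 for HLA-C, 0.44 and -0.38 for HLA-F, 0.32 and -0.17 for PSMB9, and 0.22 and -0.60 for NLRC5. The values had 1 sign for HLA-B (-0.26 and -0.76), B2M (-0.19 and -0.51), TAP1 (-0.11 and -0.37) and HLA-E (0.30 and 0.06), of which the low serum value of TAP1 and the standard serum value of HLA-E missed the threshold. Both 7TGP-POS libraries lay on one side of both 7TGP-NEG libraries under low serum and on the other side under standard serum for 4 of 8 members in MDA-MB-436, beside 9.3% of 15286 genes, and for 2 of 8 in MDA-MB-231, beside 7.12%. The difference between serum conditions itself was not tested. The low serum rises depended on the scale. On log2(TPM + 1) the median of all tested genes under low serum shifted to -0.15 in MDA-MB-436 and -0.13 in MDA-MB-231, with 3 members changed in each line, and none of the 5 MDA-MB-436 rises passed limma's test. HLA-C was then 0.05, HLA-E 0.05, HLA-F 0.18, PSMB9 0.06 and NLRC5 -0.03. Taken relative to that median the 5 values were 0.21, 0.20, 0.33, 0.21 and 0.13. In MDA-MB-231 the same scale lowered HLA-B to 0.12 (adjusted p = 0.34) and TAP1 to 0.21 (adjusted p = 0.16), or 0.25 and 0.34 relative to the median, while PSMB9 kept its call at 0.52 (adjusted p = 0.0016).

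The cell lines differed in their change for most members. The difference of the log2 fold changes, MDA-MB-231 minus MDA-MB-436, passed edgeR's test for 7 of 9 members under low serum (45.7% of all genes, with 0 members and 11.7% of all genes differing by 1 or more) and for 6 of 8 under standard serum (41.2% of all genes). The change of PSMB9, TAP1 and HLA-B was more positive in MDA-MB-231 in both conditions, and that of HLA-E was more negative in both. PSMB9 under standard serum was the only member to differ by 1 or more, at 1.05 (beside 13.8% of all genes), and it was under 1 without MDA-MB-231 7TGP-POS replicate 1 or MDA-MB-436 7TGP-NEG replicate 1. The difference for HLA-B was 0.58 in low and 0.91 under standard serum (adjusted p of 0.00026 or less under the alternatives). NLRC5 differed by -0.57 under low serum and 0.65 under standard serum, so its order between the lines was opposite in the conditions.

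Other genes of the pathway were taken from a list of 18, with peptide loading, trimming and processing genes and related class I molecules. In MDA-MB-231, 9 of 17 tested were higher in 7TGP-POS and 0 lower under low serum, and 7 of 18 were higher and 1 lower under standard serum, where all tested genes gave 19% higher and 19.9% lower, and 16.8% and 16.2%. In MDA-MB-436, 5 of 17 were higher and 8 lower under low serum (all genes 26.6% and 25.3%), and 3 of 18 were higher and 11 lower under standard serum (all genes 26.1% and 23.4%). The medians of the list were 0.18, 0.18, -0.07 and -0.37, against medians of -0.01, 0, 0.01 and 0.00 over all tested genes. The immunoproteasome subunit PSMB8 rose in MDA-MB-231 by 0.33 in low and 0.46 under standard serum, rose by 0.23 in MDA-MB-436 under low serum, and gave -0.19 there under standard serum (edgeR adjusted p = 0.052). PSME2, of the proteasome activator that works with the immunoproteasome, rose by 0.31 and 0.22 in MDA-MB-231 and fell by 0.19 and 0.87 in MDA-MB-436. Tapasin, encoded by TAPBP and the bridge between TAP and the heavy chain, fell by 0.37 and 0.70 in MDA-MB-436, and its values in MDA-MB-231 were 0.13 (not past the test) and 0.42.

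CALR, which encodes the loading chaperone calreticulin, rose by 0.18 and 0.30 in MDA-MB-231 and fell by 0.58 and 0.88 in MDA-MB-436. CANX and PDIA3, the chaperone calnexin and the oxidoreductase of the loading complex, fell in MDA-MB-436 as well, by 0.55 and 0.31 and by 0.56 and 0.54, while in MDA-MB-231 they rose by 0.45 and 0.17 under low serum and gave 0.08 and 0.14 under standard serum, neither past the test. ERAP1, the aminopeptidase that trims peptides in the endoplasmic reticulum, was higher in 7TGP-POS in both lines and conditions, by 0.49 to 0.58. MR1, a class I-like molecule that presents vitamin metabolites, was the sole DEG of the list in these comparisons. It was at 2.44 and 1.89 CPM in MDA-MB-436 7TGP-NEG and 9.34 and 8.03 CPM in 7TGP-POS under low serum (log2 1.99 ± 0.16, edgeR adjusted p = 4.84e-12), and rose by 0.89 under standard serum. Of the standard proteasome subunits that the immunoproteasome replaces, PSMB7 fell by 0.28 and 0.42 in MDA-MB-231 and by 0.37 and 0.41 in MDA-MB-436 in low and standard serum. PSMB6, whose place PSMB9 takes, gave values of -0.02 and -0.02 in MDA-MB-231, and 0.13 and -0.10 in MDA-MB-436, of which the 0.13 passed the test.

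**Figure D4:**
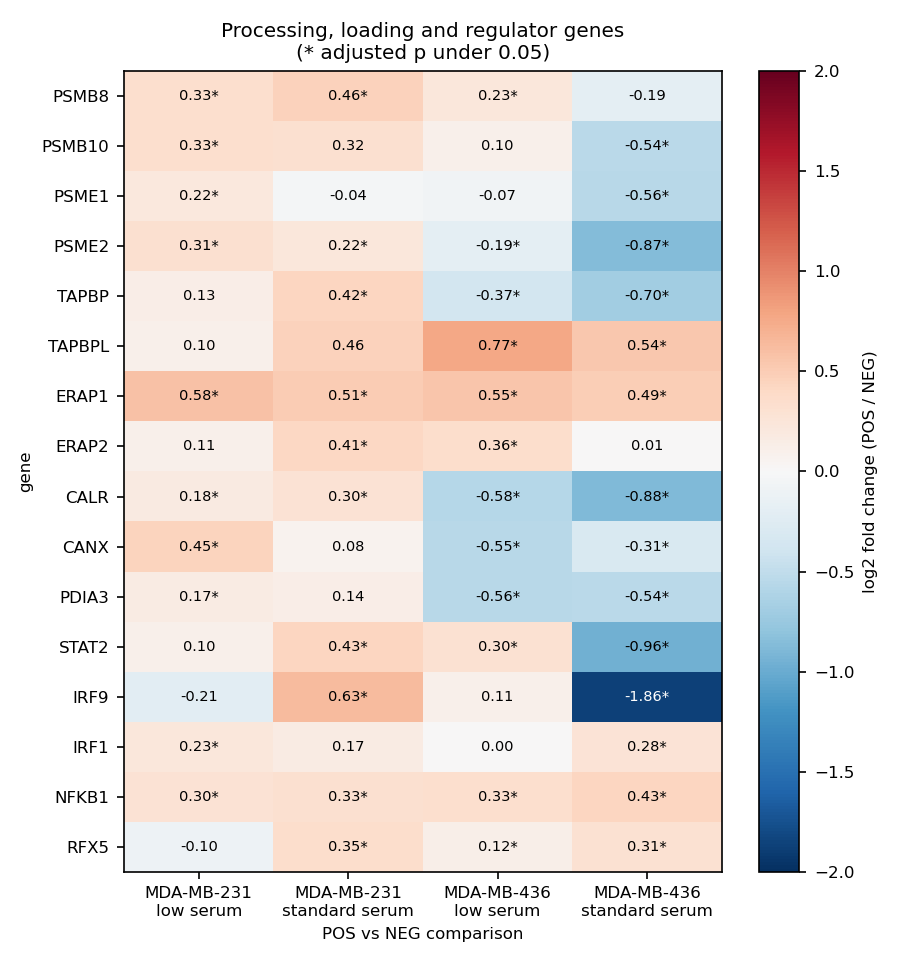
Log2 fold change of 7TGP-POS over 7TGP-NEG for 16 processing, loading and regulator genes picked from the lists (rows) in the 4 comparisons (columns), n = 2 libraries per group; colour and printed number give the value and an asterisk an edgeR adjusted p under 0.05. ERAP1 and NFKB1 are higher in each column, whereas STAT2 and IRF9 are lowest in MDA-MB-436 under standard serum.

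Among 16 transcription regulators of class I genes, the MDA-MB-231 comparison gave 3 higher and 2 lower under low serum, and 6 higher and 1 lower under standard serum. In MDA-MB-436 the counts were 5 and 2 under low serum and 7 and 4 under standard serum. The shares of the list that changed, 31.2% and 43.8% in MDA-MB-231 and 43.8% and 68.8% in MDA-MB-436, stood beside 38.9%, 33%, 52% and 49.5% of all tested genes. IRF9, a subunit of the factor that binds the interferon-stimulated response element, was at 5.83 and 5.95 CPM in MDA-MB-436 7TGP-NEG and 1.52 and 1.73 CPM in 7TGP-POS under standard serum, a fall of 1.86 ± 0.17 on the log2 scale (edgeR adjusted p = 8.33e-08). STAT2, another subunit of that factor, fell by 0.96 in the same comparison, in which HLA-B, NLRC5, B2M and TAP1 fell too. Under low serum STAT2 rose by 0.30 in MDA-MB-436, and IRF9 gave 0.11 (adjusted p = 0.57). The MDA-MB-231 comparison had STAT2 and IRF9 rising by 0.43 and 0.63 under standard serum. NFKB1, a subunit of NF-kappa B, was higher in 7TGP-POS in each of the 4 comparisons, by 0.30 to 0.43.

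Interferon-stimulated genes outside the pathway were read from a list of 20. In MDA-MB-436 under standard serum 19 of the 20 were lower and 1 higher in 7TGP-POS, with a median log2 fold change of -2.15, and under low serum 9 were higher and 9 lower with a median of -0.06. In MDA-MB-231, 8 were higher and 3 lower under low serum and 12 higher and 1 lower under standard serum, with medians of 0.08 and 0.57. Of all tested genes 23.4% were lower and 26.1% higher in MDA-MB-436 under standard serum (25.3% and 26.6% under low serum), and 19% and 16.8% were higher in MDA-MB-231 under low and standard serum. Of the 8 class I members tested in MDA-MB-436 under standard serum, 5 passed the test as lower. HLA-C and PSMB9 were lower without passing, and HLA-E gave 0.06. The members' median of -0.37 was smaller in size than that of the list. The exception in the list was MX1, an antiviral GTPase, which rose by 0.99 in MDA-MB-436 under standard serum and by 4.42 under low serum. The interferon gene IFNB1 was low: it had 39 and 41 counts in MDA-MB-436 7TGP-NEG and 7 and 13 in 7TGP-POS under standard serum (log2 -2.21 ± 0.41, edgeR adjusted p = 0.000312), and 0 counts in MDA-MB-231. IFNL1 was lower in MDA-MB-436 7TGP-POS in both conditions. Its log2 fold change was -1.55 ± 0.18 under low serum and -3.12 ± 0.29 under standard serum (edgeR adjusted p = 1.15e-09 and 2.18e-07). IFNL2 and IFNL3, at 11 counts or fewer per library in 7TGP-NEG, were also lower there under standard serum. Of the 14 interferon ligands, receptors and signalling genes, 13 were tested, and 2 were higher and 8 lower in MDA-MB-436 under standard serum. Under low serum in MDA-MB-436 3 were higher and 4 lower, and in MDA-MB-231 3 were higher and 2 lower under low serum and 2 higher and 1 lower under standard serum. Changed genes of this list made up 76.9% in MDA-MB-436 under standard serum (49.5% of all genes), 53.8% under low serum (52%), and 38.5% and 23.1% in MDA-MB-231 (38.9% and 33%).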

How the data were processed

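Bulk RNA-Seq of 16 libraries was used, 2 biological replicates in each of 8 groups. The authors aligned reads to hg19 with STAR (2.6.1a in the submitters' processing notes) and deposited whole read counts per Gencode v19 gene without normalization. The authors also deposited TPM values, which are scaled per length and per library; how they were calculated is not given in the sources used here. Symbols, biotypes and coordinates came from Gencode v44 lifted to GRCh37, with 55538 of 57820 identifiers matched, so that each member was read from its primary-assembly copy. The members and gene lists were chosen with earlier results of these data known.

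For each serum condition, protein-coding genes whose counts over 8 libraries summed to 10 or more were tested (16069 in low and 15414 in standard serum). Counts were scaled with TMM factors, and edgeR's quasi-likelihood model (robust) held 4 groups, with Benjamini-Hochberg adjustment over all tested genes. A p under 0.05 after adjustment is a change, and a DEG has in addition a log2 fold change of 1 or more in size. The standard error of a log2 fold change was taken as its size over the root of F, and 95% intervals, before adjustment, used a t quantile with the total degrees of freedom of edgeR's test. CPM values are scaled by TMM. A library with 3 counts or fewer for a gene is at the floor; floors and intervals of single counts cover counting error only. Replicates were compared by a chi-square test of their counts, and no pair differed by less than sampling noise. Each tested member is named in each comparison. From the lists, the genes named are a subset chosen after their values were seen, and a listed gene is not reported here. The gene most alike was sought by the mean of the members' scaled log2 CPM.

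Alternatives were DESeq2's test and its size factors, library totals, other filters, all biotypes, the 4 compared libraries alone, the replicate number as a block, limma-trend on log2(TPM + 1) and log2(TPM + 0.1), and leaving out each library. The fits were tested on simulated counts. Promoter sequences are RefSeq's for GRCh38.p14 and were not mixed with the GRCh37 coordinates. Versions were R 4.3.3, edgeR 4.0.16, limma 3.58.1, DESeq2 1.42.0, matplotlib 3.10.9, scipy 1.17.1, pandas 2.3.3, numpy 2.4.6 and Python 3.11.15.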

Additional observations from a re-analysis of the deposited data

Results flagged for a closer look

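The change from 7TGP-NEG to 7TGP-POS differed between the cell lines for 7 of 9 members in low serum by edgeR's test of the difference, beside 45.7% of all tested genes. As MDA-MB-231 minus MDA-MB-436 on the log2 scale, the values were 0.58 for HLA-B, 0.53 for TAP1, 0.44 for PSMB9, 0.29 for B2M, -0.23 for HLA-C, -0.44 for HLA-E and -0.57 for NLRC5. HLA-C lost its call under 7 alternatives, among them the fits without MDA-MB-436 7TGP-NEG replicate 1 (-0.20) and without MDA-MB-436 7TGP-POS replicate 1 (-0.14). In standard serum 6 of 8 members differed, beside 41.2% of all tested genes: PSMB9 by 1.05, HLA-B by 0.91, TAP1 by 0.74, NLRC5 by 0.65, HLA-C by 0.52 and HLA-E by -0.34. Here HLA-C lost its call under 8 alternatives, including the fits that left out any 1 MDA-MB-231 library or MDA-MB-436 7TGP-NEG replicate 2 (0.45 to 0.59). HLA-E lost it without MDA-MB-231 7TGP-NEG replicate 1 (-0.33), MDA-MB-231 7TGP-POS replicate 2 (-0.28) or MDA-MB-436 7TGP-NEG replicate 1 (-0.33).

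For 4 of 8 members in MDA-MB-436 and 2 of 8 in MDA-MB-231 (9.3% and 7.12% of all genes) both 7TGP-POS libraries lay on one side of both 7TGP-NEG libraries in low serum and on the other side in standard serum. The difference between serum conditions was not tested, since days, library kit and sequencer differ with serum. In MDA-MB-436 the low and standard serum log2 changes were 0.30 and -0.27 for HLA-C, 0.44 and -0.38 for HLA-F, 0.32 and -0.17 for PSMB9, and 0.22 and -0.60 for NLRC5, whose low serum value turned to -0.03 on TPM. In MDA-MB-231 they were 0.10 and -0.34 for B2M, whose low serum libraries nearly touched (664 CPM in the nearest of each group) and whose value turned to -0.10 on TPM, and -0.35 and 0.059 for NLRC5. Both values passed their own test for HLA-F and NLRC5 in MDA-MB-436. In MDA-MB-436 only the low serum value did for HLA-C and PSMB9, and in MDA-MB-231 only the standard serum value for B2M and the low serum value for NLRC5.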

How the results depend on the processing

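Of 694 values of single members recomputed with another setting, 624 kept their direction and side of the threshold, as did 500 of 544 with 1 library left out. Counts of changed members moved by more than 1.5 times on TPM alone. With limma on log2(TPM + 1) and log2(TPM + 0.1), 3 members changed in low serum in MDA-MB-231 and 3 in MDA-MB-436. On log2(TPM + 1) the change from 7TGP-NEG to 7TGP-POS differed between the lines for 4 members in low serum. PSMB9, the only member whose change differed between the lines by 1 or more in standard serum, fell below 1 on both TPM scales (0 DEGs). With 1 library left out that count ranged from 0 to 1. Directions reversed on log2(TPM + 0.1) and log2(TPM + 1) in low serum for HLA-B (-0.30 and -0.29) and NLRC5 (-0.31 and -0.28) between the 7TGP-NEG sublines, for HLA-C (-0.13 and -0.13) and B2M (-0.10 and -0.10) in MDA-MB-231, and for NLRC5 (-0.030 and -0.027) and TAP2 (-0.030 and -0.00053) in MDA-MB-436. In standard serum HLA-B between the 7TGP-NEG sublines reversed to -0.026 with library totals, which shift the median of all genes to -0.30 there, and NLRC5 to 0.016 with all biotypes and to 0.0091 without MDA-MB-436 7TGP-NEG replicate 1 (-0.075 to 0.0091 over single libraries left out). Leaving out MDA-MB-436 7TGP-POS replicate 1 turned TAP2 in low serum to -1.16 (range -1.16 to 1.15), and leaving out replicate 2 turned HLA-E in standard serum to -0.037 (range -0.037 to 0.13) and the low serum difference of TAP2 between the lines to -0.18 (range -0.18 to 2.14). The cause was not tested.

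Same-numbered libraries deviated with correlations of -0.13 to 0.03 in low serum, 0 of 6 over 0.1, and of -0.03 to 0.21 in standard serum, 4 of 6 over 0.1. Since not every pair was over 0.1 and the labels name no shared batch, the numbers were not taken to pair the samples, although some sharing in standard serum is possible. With the replicate number as a block, 6 members changed in MDA-MB-436 in standard serum, HLA-C (-0.28, edgeR adjusted p = 0.038) being added, and the other counts were as without the block. A crossed block in low serum, added after seeing the data, gave 6 changed members in MDA-MB-231 and 7 in MDA-MB-436. Adding alternate-haplotype copies was not run, because the tables used here hold 1 copy of each member. TAP2 could not be judged at its counts, and for the scarce member HLA-F the 95% interval in MDA-MB-231 reached from -0.52 to 0.26 in standard serum.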

Other observations

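Class II genes, which present peptides from outside the cell, separated the cell lines. CD74, the invariant chain, was at 574 to 923 CPM in MDA-MB-231 and at 0.12 to 1.81 CPM in MDA-MB-436. In MDA-MB-436 it rose in 7TGP-POS by 1.33 ± 0.23 on the log2 scale under low serum, from 0.80 and 0.48 to 1.81 and 1.48 CPM, and by 2.42 ± 0.30 under standard serum, from 0.12 and 0.30 to 1.15 and 1.17 CPM (edgeR adjusted p = 3.78e-06 and 2.57e-06). CIITA, the class II transactivator related to NLRC5, had 0 counts in both MDA-MB-436 7TGP-NEG libraries under standard serum and 16 and 21 counts in 7TGP-POS, at least 4.96-fold higher against a floor of 3 counts per library. HLA-DRA, at least 3.47-fold higher in the same comparison, had 10 and 17 counts in 7TGP-POS. Of 7 class II genes tested there, 4 were higher in 7TGP-POS and 0 lower under standard serum (26.1% of all genes were higher), and 1 was higher and 0 lower under low serum (26.6%), at counts far below those of MDA-MB-231.

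Over the 8 libraries of each serum condition, the genes whose log2 CPM was most like the mean of the scaled members were TSPAN14 (Pearson r of 0.95 in low and 0.91 under standard serum), XPNPEP1 (0.89 and 0.88), YIPF5 (0.82 and 0.88), SREBF1 (0.91 and 0.80) and AGAP3 (0.83 and 0.80), out of 12498 genes. These are descriptions over libraries that share cell line and subline.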
